A study of Mus musculus with 2 samples.

Results

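Megakaryocyte and platelet genes were examined as a group of 41 named genes in spleen cells of C57BL/6 mice that carried a liver cancer, hepatocellular carcinoma. The members are a fixed list of symbols and were looked up in the platform annotation of the array. Of the 41, 37 had a probe set named for them alone, among 18193 genes with such a probe set. Gp1ba, Ptgs1, Serpine2 and Bin2 had none and were not analysed here. A gene with several probe sets was represented by the one with the highest mean log2 intensity of the 2 arrays.

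Each group consisted of 1 Affymetrix array. The CD45- cells were sorted as positive for Ter119, a surface marker of the red cell lineage, and negative for CD45, the surface marker shared by white cells. The CD45+ cells came from the same animals and served as the control, and whether Ter119 entered their gate is not stated. All cells came from tumour-bearing animals, so no tumour-free spleen enters the comparison. How the tumours arose, the age and number of the animals and any pooling are not given in the sources used here. Neither group has a replicate array, so no difference was tested and no p-value is given. In sorted bulk samples such as these, fewer cells of a type and less RNA per cell cannot be told apart.

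Megakaryocytes are the large bone marrow and, in mice, spleen cells that shed platelets. They share a progenitor and several transcription factors with red cells. A platelet has no nucleus and carries over RNA, granules and receptors made by its megakaryocyte. Its work runs in steps: receptors such as the GPIb-IX-V complex catch von Willebrand factor at a wound and others bind collagen, soluble agonists amplify the signal, the integrin formed by the Itga2b and Itgb3 products binds fibrinogen, and granules release chemokines, clotting factors and growth factors.

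Most platelet genes were brighter in the CD45- array. The detection level was an intensity of 101.1, which 95% of 80 probe sets for olfactory and vomeronasal receptors, genes taken as silent in spleen, did not exceed. Genes above it in either array are called measured. Of the 37 members, 34 were above this level in the CD45- array, 25 of them also in the CD45+ array, and 0 in the CD45+ array alone. This split depends on the common level. With a level for each array, Nbeal2 and Selp were above it in the CD45+ array alone. Treml1, Thbs1 and Pdgfa then passed it in the CD45+ array too. Itga2, P2ry1 and Selp were under 101.1 in both arrays by the probe sets that stood for them. Another of the 3 probe sets of Selp had 103.3 in the CD45- array against 22.1 in the CD45+ array. Over all genes, 54.2% were above the common level in the CD45- array and 56.1% in the CD45+ array. Values at or under the level were set to it, so the difference of a gene measured in 1 array alone is a bound on its size, written "at least". The fold printed for such a gene uses 101.1 where the CD45+ value was under it. Where a gene was dimmer in the CD45- array and there under 127.3, the same percentile in the CD45- array alone, the printed fold uses 127.3. Differences are log2 intensity of the CD45- array minus that of the CD45+ array.

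Of the 34 measured members, 15 were at least 4-fold higher in the CD45- cells and 2, Tbxa2r and Nbeal2, passed 4-fold lower with the common level. With a level for each array, Nbeal2 no longer counted and 1 was lower. Of the 11793 genes measured on the arrays, 8.31% differed by 4-fold or more upwards and 16.8% downwards. After quantile normalization of the arrays, the members split into 17 higher and 0 lower. The 9 members measured in the CD45- array alone could only come out higher. Of the 25 members measured in both arrays, 10 were at least 4-fold higher, against 10.0% of the 8272 genes measured in both. The median difference of these 25 was 1.37, and that of all such genes was -0.27. Over all 37 members without a detection level the median was 2.26, and over all 18193 genes it was 0.02. Without a level, dim members carry a background offset between the arrays. The receptor probe sets taken as silent had a median of 33.65 in the CD45- array and 17.5 in the CD45+ array. Quantile normalization shifted the median of all measured genes to 0.01, from -0.26 as deposited, so differences as deposited run slightly low relative to that scaling.

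**Figure D1:**
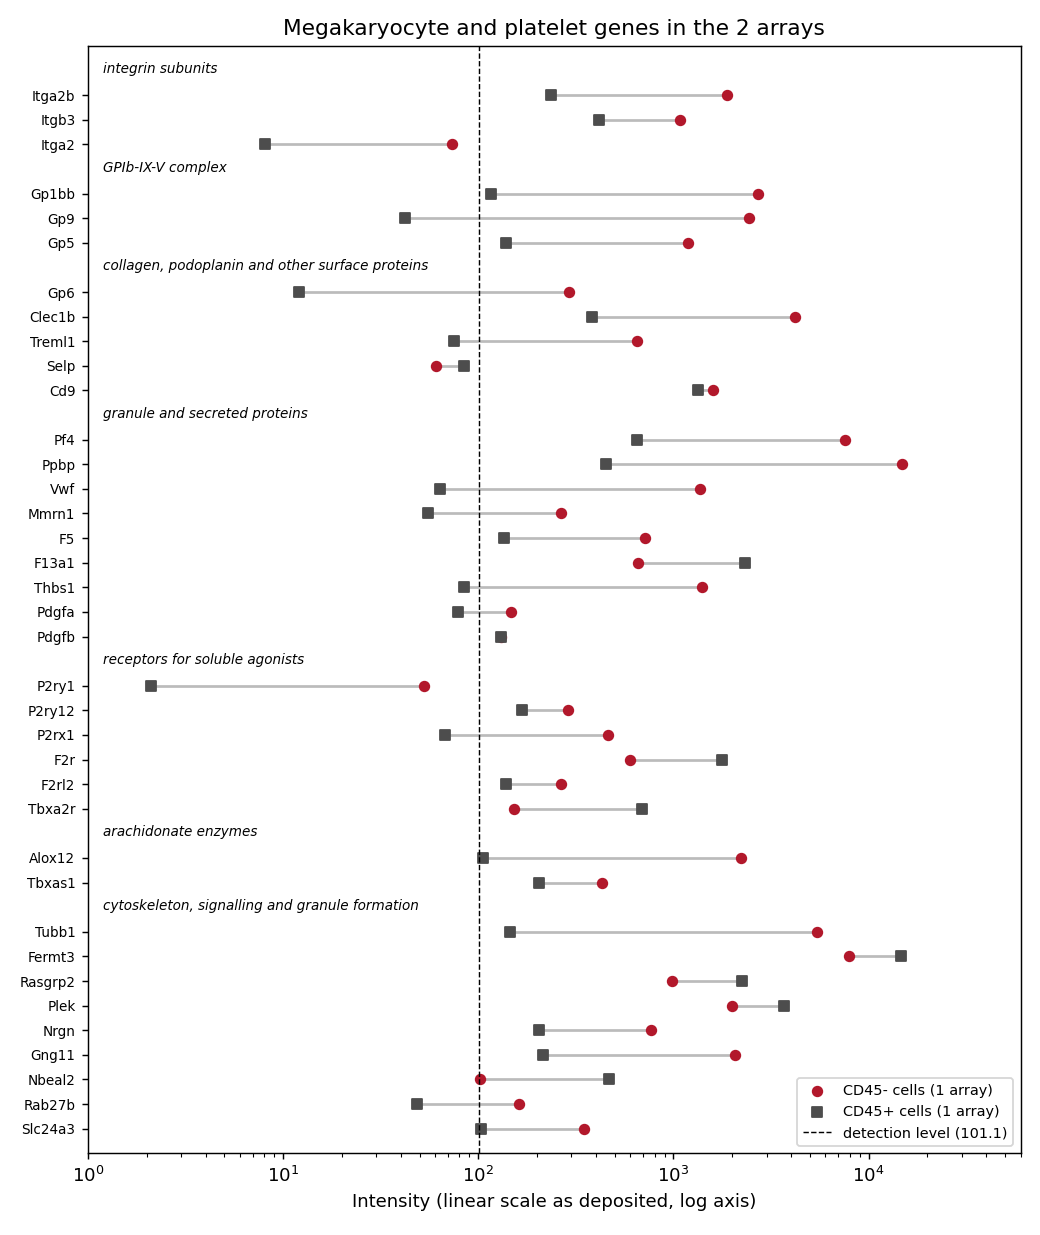
Intensity of each of the 37 members on a log axis, ordered by role, with CD45- cells as circles, CD45+ cells as squares and the detection level of 101.1 as a dashed line (1 array per group). The widest gaps to the right of the level belong to Tubb1, Ppbp, Gp9, Gp1bb and Alox12, while Fermt3, Plek, Rasgrp2, F13a1, F2r, Tbxa2r, Nbeal2 and Selp run the other way.

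The GPIb-IX-V complex, the platelet receptor for von Willebrand factor, was higher in the CD45- cells in each of its 3 subunits on the array. Gp9 had an intensity of 2424.2 in the CD45- array against 42.0 in the CD45+ array, which was under the level, so it was at least 24.0-fold higher. Gp1bb had 2715.0 in the CD45- array against 115.9 in the CD45+ array (23.4-fold higher). Gp5 had 1185.8 in the CD45- array against 138.2 in the CD45+ array (8.58-fold higher). Gp1bb was thus just above the level in the CD45+ cells, and Gp9 was not measured there. The second probe set of Gp1bb gave 290.5 in the CD45- array against 36.6 in the CD45+ array. A probe set that names both Gp1bb and its neighbour Septin5, and so was not used, had 105.5 in the CD45- array and 112.2 in the CD45+ array. The promoters of the 3 genes are shown because these subunits form 1 complex and were higher together. Gp9 is on chromosome 6, and Gp1bb and Gp5 are on chromosome 16. The sequences are from RefSeq (GRCm38.p6), run 5′ to 3′ from 250 bases before to 50 after the start of the gene, and lie at chr6:87777820-87778119 (plus strand) for Gp9, chr16:18622354-18622653 (minus strand) for Gp1bb and chr16:30310732-30311031 (minus strand) for Gp5. Capitals mark matches on either strand to AGATAA or TGATAA, letters bound by GATA factors, and to AGGAAG or CGGAAG, letters bound by ETS factors. The matches in these windows do not overlap.
Gp9: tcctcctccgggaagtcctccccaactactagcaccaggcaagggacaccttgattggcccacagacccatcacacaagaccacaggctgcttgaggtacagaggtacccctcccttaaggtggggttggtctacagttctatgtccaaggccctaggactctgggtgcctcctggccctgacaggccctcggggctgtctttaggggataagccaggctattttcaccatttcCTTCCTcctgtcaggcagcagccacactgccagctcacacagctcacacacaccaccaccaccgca
Gp1bb: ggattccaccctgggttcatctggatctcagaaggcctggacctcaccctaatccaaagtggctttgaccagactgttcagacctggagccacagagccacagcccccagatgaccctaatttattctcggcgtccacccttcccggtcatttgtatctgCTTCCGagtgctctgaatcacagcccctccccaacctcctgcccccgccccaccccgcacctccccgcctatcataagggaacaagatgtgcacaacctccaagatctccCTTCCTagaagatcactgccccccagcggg
Gp5: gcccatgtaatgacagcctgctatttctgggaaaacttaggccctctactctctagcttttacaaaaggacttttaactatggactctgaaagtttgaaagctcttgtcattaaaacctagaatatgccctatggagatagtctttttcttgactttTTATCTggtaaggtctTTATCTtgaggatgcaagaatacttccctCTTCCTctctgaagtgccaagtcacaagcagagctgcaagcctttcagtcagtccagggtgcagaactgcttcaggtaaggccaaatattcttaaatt

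Each of the 3 windows held an ETS-type match, and that of Gp5 also held GATA-type matches. Promoters were in the table for 34 of the 41 members and for 12 of the 15 that were at least 4-fold higher. Of those 12 windows, 4 (33.3%) held a GATA-type match and 7 (58.3%) an ETS-type match. Of the 24 windows of the other members on the array, 12.5% held a GATA-type and 54.2% an ETS-type match. Among all 32851 promoters of this length in the table, 18.6% held a GATA-type and 46.5% an ETS-type match. A GATA-type and an ETS-type match together were found in 2 of the 12 windows (16.7%) and in 7.7% of all promoters. The NF-E2-type letters TGACTCA or TGCTGAG were in 0 of the 12 windows and in 12.5% of all promoters. These are matches of letters in a short window and were not tested against the array values.

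The integrin subunits differed among themselves. Itga2b, the alpha subunit of the platelet fibrinogen receptor, had 1877.5 in the CD45- array against 235.5 in the CD45+ array (7.97-fold higher). Its partner Itgb3, which also pairs with the alpha V subunit on other cells, had 1076.3 in the CD45- array against 417.1 in the CD45+ array, a difference of 1.37 that did not reach 4-fold. The other Itgb3 probe set did not reach the level, at 27.4 in the CD45- array and 75.2 in the CD45+ array. Itga2, a collagen-binding subunit, stayed under the level at 73.2 in the CD45- array and 8.1 in the CD45+ array.

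Of the remaining 5 surface proteins, 4 were measured and 2 of these were at least 4-fold higher, beside 8.31% of all measured genes. Clec1b, the receptor for podoplanin, had 4210.5 in the CD45- array against 382.5 in the CD45+ array (a difference of 3.46). Treml1, a receptor stored in alpha granules, had 653.5 in the CD45- array against 75.0 in the CD45+ array (at least 6.46-fold higher). Gp6, the main collagen receptor of platelets, had 289.9 in the CD45- array against 12.1 in the CD45+ array. Since the CD45+ value was far under the level, only a difference of at least 2.87-fold could be shown for Gp6. Cd9, a tetraspanin that white cells carry too, had 1601.8 in the CD45- array and 1329.6 in the CD45+ array (a difference of 0.27). Selp, the granule-membrane selectin, had 60.9 in the CD45- array and 84.4 in the CD45+ array by its brightest probe set.

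Both granule chemokines passed 4-fold. Pf4, a chemokine of alpha granules, had 7603.2 in the CD45- array against 651.0 in the CD45+ array (11.7-fold higher). Ppbp, the precursor of a neutrophil-attracting chemokine, had 14737.1 in the CD45- array against 451.6 in the CD45+ array (32.6-fold higher). Both were well above the level in the CD45+ cells as well. The 2 genes are neighbours, with windows that start 3917 bases apart on the same strand, and their promoters are shown for that reason. The RefSeq windows (GRCm38.p6, 5′ to 3′, plus strand) are chr5:90772185-90772484 for Pf4 and chr5:90768268-90768567 for Ppbp, with capitals as for the GPIb-IX-V genes. The Pf4 window held 1 ETS-type and 1 GATA-type match and the Ppbp window neither.
Pf4: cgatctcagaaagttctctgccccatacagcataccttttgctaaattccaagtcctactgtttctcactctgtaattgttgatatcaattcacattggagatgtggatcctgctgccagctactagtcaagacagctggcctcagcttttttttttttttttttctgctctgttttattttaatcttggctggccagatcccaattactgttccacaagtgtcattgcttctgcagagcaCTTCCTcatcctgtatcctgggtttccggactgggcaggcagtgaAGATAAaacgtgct
Ppbp: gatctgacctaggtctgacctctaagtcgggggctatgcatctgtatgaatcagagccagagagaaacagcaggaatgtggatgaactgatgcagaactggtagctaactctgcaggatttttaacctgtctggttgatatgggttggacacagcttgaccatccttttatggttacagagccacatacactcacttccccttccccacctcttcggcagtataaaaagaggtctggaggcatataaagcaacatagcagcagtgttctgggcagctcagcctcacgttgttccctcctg

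Adhesive and clotting proteins of the granules were mostly brighter in the CD45- cells. Vwf, von Willebrand factor, had 1368.4 in the CD45- array against 63.9 in the CD45+ array (at least 13.5-fold higher). Thbs1, thrombospondin, had 1405.4 in the CD45- array against 84.1 in the CD45+ array (at least 13.9-fold higher). F5, clotting factor V, had 716.1 in the CD45- array against 134.7 in the CD45+ array (5.32-fold higher), and its second probe set had 550.8 in the CD45- array against 65.5 in the CD45+ array. All 3 genes were at least 4-fold higher. Mmrn1, multimerin, which binds factor V, had 263.7 in the CD45- array against 54.9 in the CD45+ array (at least 2.61-fold). F13a1, the clot-stabilising transglutaminase that monocytes and macrophages also make, was the 1 granule member dimmer in the CD45- cells, with 656.6 in the CD45- array against 2327.7 in the CD45+ array (a difference of -1.83). The growth factor genes were close to the level. Pdgfa had 146.3 in the CD45- array and 78.9 in the CD45+ array, and Pdgfb 131.0 in the CD45- array and 130.6 in the CD45+ array. The second Pdgfb probe set gave 38.9 in the CD45- array and 205.7 in the CD45+ array, so no direction holds for it.

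Vwf, Mmrn1 and Selp are made by endothelial cells too. Of 10 endothelial markers on the array (Cdh5, Kdr, Tek, Emcn, Plvap, Tie1, Robo4, Stab2, Cldn5 and Egfl7), 3 were above the level in the CD45- array and 2 in the CD45+ array, and none passed 4-fold. Without a detection level 8 of the 10 were brighter in the CD45- array, the same direction as Vwf and Mmrn1, with a median difference of 0.86. Plvap had a difference of 2.59, Cldn5 of 2.14 and Emcn of 1.76 on that scale, though Cldn5 and Emcn were under the level in both arrays. The receptor probe sets taken as silent had a median of 33.65 in the CD45- array and 17.5 in the CD45+ array. Values near background thus tended to be brighter in the CD45- array, and differences without a level include this offset. The summed intensity of the 10 was 699.9 in the CD45- array and 540.0 in the CD45+ array. Cdh5, Kdr, Tek and Tie1, junction and receptor genes of endothelial cells, had 13.8, 5.8, 2.4 and 7.5 in the CD45- array, all under the level, and 126.4, 78.3, 1.3 and 6.2 in the CD45+ array. The markers above it there were Plvap at 127.4, Stab2 at 157.7 and Egfl7 at 129.3. The part of endothelial RNA in the Vwf and Mmrn1 values was not tested.

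Receptors for soluble agonists showed no common direction. P2rx1, an ATP-gated ion channel, had 462.4 in the CD45- array against 67.5 in the CD45+ array (at least 4.57-fold higher). Its other probe set had 173.4 in the CD45- array against 49.1 in the CD45+ array, and with the mean of both the difference was 1.49, under 4-fold. P2ry12, the ADP receptor that antiplatelet drugs block, had 287.1 in the CD45- array and 167.3 in the CD45+ array (a difference of 0.78). P2ry1, the other ADP receptor, fell short of the level at 52.6 in the CD45- array and 2.1 in the CD45+ array. Of the thrombin receptors, F2r, which human but not mouse platelets rely on, had 598.8 in the CD45- array against 1766.6 in the CD45+ array (a difference of -1.56). F2rl2, a thrombin receptor of mouse platelets, had 263.7 in the CD45- array and 139.2 in the CD45+ array (a difference of 0.92). F2rl3, which mouse platelets use beside it and which was read from a further list, did not reach the level, at 84.0 in the CD45- array and 57.4 in the CD45+ array. Tbxa2r, the thromboxane receptor, was at least 4-fold lower, with 153.1 in the CD45- array against 693.3 in the CD45+ array (4.53-fold).

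The arachidonate enzymes turn a membrane fatty acid into platelet mediators. Alox12, the platelet-type lipoxygenase, had 2227.6 in the CD45- array against 105.4 in the CD45+ array (21.1-fold higher). The second Alox12 probe set had 247.3 in the CD45- array against 37.7 in the CD45+ array, and with the mean of both the difference was 2.88. Tbxas1, thromboxane synthase, which macrophages also make, had 431.3 in the CD45- array against 205.5 in the CD45+ array (a difference of 1.07). Alox12 thus passed 4-fold and Tbxas1 did not.

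Members that act inside the cell fell into 2 patterns. Tubb1, the beta tubulin of the platelet's marginal ring, had 5465.0 in the CD45- array against 145.7 in the CD45+ array, and its difference of 5.23 was the largest of the members with the detection level. Without a level that of Gp9 was larger, at 5.85. Gng11, a G protein gamma subunit, had 2072.0 in the CD45- array against 215.4 in the CD45+ array (9.62-fold higher). Both were at least 4-fold higher. Nrgn, a calmodulin-binding protein whose RNA is found in platelets, had 764.5 in the CD45- array against 203.4 in the CD45+ array (a difference of 1.91). Slc24a3, a sodium, potassium and calcium exchanger, had 348.2 in the CD45- array against 103.5 in the CD45+ array (a difference of 1.75). These 2 stopped short of 4-fold.

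Of the 9 members of this role, 4 were dimmer in the CD45- array, and none of the 4 holds as a 4-fold difference with a level for each array. Fermt3, kindlin of blood cells, which switches integrins on, had 7936.9 in the CD45- array against 14717.9 in the CD45+ array (a difference of -0.89). Its 4 probe sets ran from -2.22 to -0.84. Rasgrp2, the calcium-dependent activator of the small GTPase Rap, had 987.7 in the CD45- array against 2251.8 in the CD45+ array (a difference of -1.19), and its 4 probe sets ran from -2.87 to -1.19. All probe sets of both genes were thus dimmer in the CD45- array. Plek, pleckstrin, a protein kinase C substrate, had 1983.3 in the CD45- array against 3694.7 in the CD45+ array (a difference of -0.90). Nbeal2, needed for alpha granules to form, had 102.4 in the CD45- array against 468.0 in the CD45+ array. The Nbeal2 value of 102.4 passed the common level, but not 127.3, so only a difference of at least 3.68-fold lower holds for it.

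Rab27b, a GTPase of granule secretion, had 160.9 in the CD45- array against 48.3 in the CD45+ array by the probe set that stood for it (at least 1.59-fold higher). Its other 3 probe sets, with CD45- intensities of 101.4 to 205.6, gave differences of 2.82 to 3.94 without a detection level. Its close relative Rab27a had 56.5 in the CD45- array against 1287.4 in the CD45+ array (at least 10.1-fold lower), although 1 of the 4 probe sets of Rab27a gave a difference of 1.26. By their brightest probe sets the pair ran in opposite directions.

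**Figure D2:**
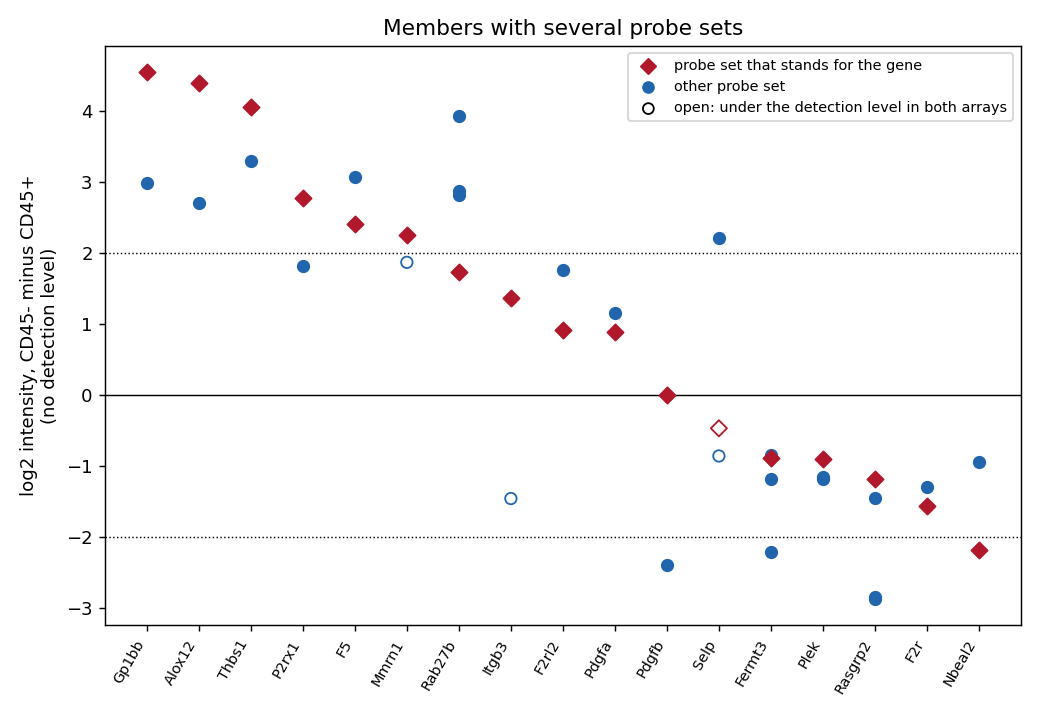
Difference of log2 intensity, CD45- minus CD45+, for every probe set of the 17 members with several, without a detection level; red diamonds are the probe sets that stood for a gene, and open symbols were under the level in both arrays. All probe sets of Gp1bb, Alox12, Thbs1, F5 and Rab27b lie above 0 and all of Fermt3, Plek, Rasgrp2, F2r and Nbeal2 below, while those of Itgb3 and Selp fall on both sides.

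Of the 37 members, 20 had 1 probe set and 17 had several. In 4 of the 17 the probe sets differed by 4-fold or more, namely Itgb3, Selp, Pdgfb and Rab27b. Over 3608 genes with several probe sets above the level in both arrays, the pooled SD of the difference between probe sets was 0.66 on the log2 scale. This spread is not replicate error, but it is the only repeated measure here.

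The members were also divided by whether they are known from white cells, a grouping drawn up from textbook knowledge. Earlier results of these data were known when it was drawn up, so it is not independent of them. Of 13 on the array that are largely restricted to megakaryocytes and platelets among blood cells (Itga2b, Gp9, Gp1bb, Gp5, Gp6, Pf4, Ppbp, Tubb1, Treml1, Mmrn1, Vwf, F2rl2 and Slc24a3), 13 were brighter in the CD45- array. Of these, 9 (69.2%) were at least 4-fold higher and 0 lower, beside 8.31% higher and 16.8% lower over all measured genes. Only 8 of the 13 were measured in both arrays. Gp9, Gp6, Treml1, Mmrn1 and Vwf were measured in the CD45- array alone, so they could only come out higher. The summed intensity of the 13 was 39195.2 in the CD45- array and 2228.5 in the CD45+ array. Ppbp, Pf4 and Tubb1 had the largest values of that sum in the CD45- array. Of 16 that lymphocytes, monocytes, macrophages or granulocytes are also known to make, 9 were brighter and 7 dimmer in the CD45- array. Of these 16, 14 were measured, and 4 of them (28.6%) were at least 4-fold higher (Clec1b, F5, P2rx1 and Thbs1). P2rx1 and Thbs1 were measured in the CD45- array alone. Of the 14, 1 (7.14%), Nbeal2, passed 4-fold lower with the common level. That count of 1 was 0 with a level for each array, with the 99th percentile as the level or after quantile normalization. It was 2 without probe sets with an a, s or x suffix in their name (_a_at, _s_at or _x_at). Without a detection level, the median difference was 3.55 over the 13 and 0.14 over the 16, with the background offset between the arrays included. Of the other 8 members, 7 were measured, of which 2 were at least 4-fold higher (Alox12 and Gng11) and 1 lower (Tbxa2r). The differences between these groups of members were not tested.

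White cell RNA differed between the arrays beside these values. Of 11 white cell markers on the array, 9 were above the level in the CD45- array and 11 in the CD45+ array, and 10 were at least 4-fold lower in the CD45- cells. Their summed intensity was 6492.8 in the CD45- array and 276559.3 in the CD45+ array. Of 9 monocyte and macrophage markers, 8 were lower by 4-fold or more, and the summed intensity was 2052.0 in the CD45- array and 46333.6 in the CD45+ array. The 8 erythroid markers all passed 4-fold in the other direction, and their summed intensity was 394406.4 in the CD45- array and 12065.4 in the CD45+ array. Mast cell and basophil markers summed to 517.6 in the CD45- array and 938.6 in the CD45+ array, stromal markers to 667.2 in the CD45- array and 427.0 in the CD45+ array, and hepatocyte markers to 312.3 in the CD45- array and 319.5 in the CD45+ array. Above the level were 4 of 7, 1 of 8 and 2 of 6 of these in at least 1 array. No marker of any list was at 0, but a value above 0 does not by itself show RNA of a cell type. The receptor probe sets taken as silent had medians of 33.65 in the CD45- array and 17.5 in the CD45+ array. The part of each cell type in the members' values was not tested. The gates select on Ter119 and CD45, so the erythroid and white cell values are a check of the labels.

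**Figure D3:**
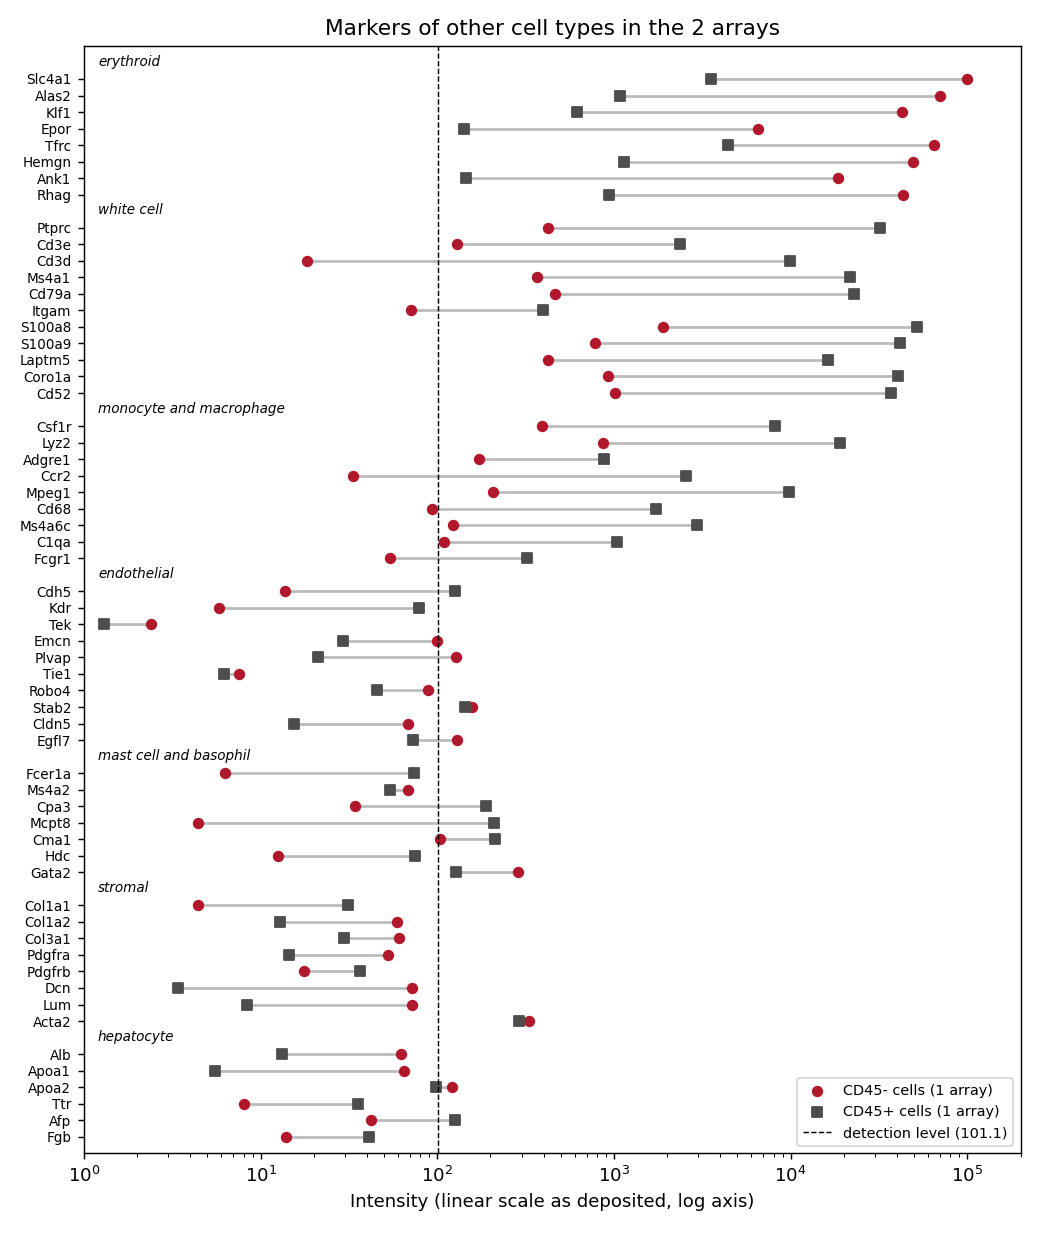
Intensity of each marker of 7 other cell types on a log axis, with CD45- cells as circles, CD45+ cells as squares and the detection level of 101.1 as a dashed line (1 array per group). Erythroid markers sit to the right in the CD45- cells and white cell, monocyte and macrophage markers in the CD45+ cells, while most endothelial, stromal and hepatocyte markers lie under the level in both.

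The transcription factors of the megakaryocyte programme ran in both directions. Of 16 measured genes of that list, 8 were higher by 4-fold or more and 5 lower by as much. All measured genes had 8.31% higher and 16.8% lower. Without cross-hybridizing probe sets, 7 genes of the list were higher and 3 lower. The factors that also drive the red cell lineage were the highest. Tal1 had 30937.2 in the CD45- array against 461.3 in the CD45+ array, Gfi1b 7404.7 in the CD45- array against 150.4 in the CD45+ array, and Nfe2, which megakaryocytes need to form platelets, 30976.7 in the CD45- array against 647.5 in the CD45+ array. Gata1, required in both lineages, had 14955.2 in the CD45- array against 351.8 in the CD45+ array (42.5-fold higher).

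In contrast, Fli1, the ETS factor of megakaryocytes that lymphocytes and endothelial cells also make, had 149.0 in the CD45- array against 3695.7 in the CD45+ array (24.8-fold lower), with both of its probe sets near that difference. Cbfb, the partner of Runx factors, had 129.4 in the CD45- array against 5205.4 in the CD45+ array (40.2-fold lower). Mrtfa, a cofactor of the serum response factor, was at least 9.21-fold lower, Etv6 at least 8.67-fold lower and Srf, the serum response factor itself, 4.23-fold lower, with -0.45 by its other probe set. Runx1, named after its values were seen, had 448.5 in the CD45- array and 472.2 in the CD45+ array, and its 6 probe sets ran from -1.97 to 0.87. Thpo, the gene of the hormone thrombopoietin, was not analysed here because no probe set was named for it alone.

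Signalling proteins that act below platelet receptors, most of them shared with white cells, were mainly dimmer in the CD45- cells. In this list of 30 measured genes, 12 were lower by 4-fold or more and 2 higher by as much. Over all measured genes, 16.8% were lower and 8.31% higher by 4-fold or more. Syk, the kinase below Gp6 and Clec1b, had 255.5 in the CD45- array against 7970.1 in the CD45+ array (31.2-fold lower), with probe sets from -4.96 to -0.31. Fyn was 24.8-fold and Rasa3, a GTPase-activating protein for Rap, 19.7-fold lower. Chosen after their values were seen, Fcer1g, the signalling chain of Gp6, had 531.3 in the CD45- array against 6660.3 in the CD45+ array, Plcg2 had 301.3 in the CD45- array against 5112.5 in the CD45+ array, and the adaptor Lcp2 had 194.9 in the CD45- array against 2115.4 in the CD45+ array. The 2 in the other direction were Arrb1, an arrestin, with 14954.8 in the CD45- array against 530.1 in the CD45+ array (28.2-fold higher), and Pik3cb, a phosphoinositide kinase subunit, with 788.5 in the CD45- array against 164.2 in the CD45+ array (4.80-fold higher).

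Of 27 measured genes for granule formation and release, 7 (25.9%) were lower by 4-fold or more and 0 higher. All measured genes had 16.8% lower and 8.31% higher. With the mean of probe sets 3 were lower, and after quantile normalization 4 were lower and 1 higher. Hps3, a subunit of a complex needed for dense granules, had 166.9 in the CD45- array against 2754.9 in the CD45+ array (16.5-fold lower). Lyst, a regulator of lysosome-related organelles, was 11.7-fold lower, and Rab32, a GTPase of the same route, at least 5.02-fold lower, beside Rab27a. Of 10 measured genes for further granule cargo, 1 was higher by 4-fold or more and 3 lower by as much. Clu, clusterin, had 1714.0 in the CD45- array against 146.8 in the CD45+ array (11.7-fold higher), and its 4 probe sets ran from 3.42 to 5.19. Srgn, the granule proteoglycan, had 6406.5 in the CD45- array against 26282.0 in the CD45+ array (4.10-fold lower). Ccl5, which T cells also store, was at least 117-fold lower, and Ctsa, a lysosomal protease, 11.2-fold lower by its brightest probe set, while its other probe set gave 0.09.

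Of 26 measured cytoskeletal genes of platelets, 6 were higher by 4-fold or more and 6 lower by as much (23.1% each), beside 8.31% higher and 16.8% lower over all measured genes. With the mean of probe sets 3 were higher and 6 lower. Myl9, a myosin light chain of contractile cells and platelets, had 1440.1 in the CD45- array against 107.9 in the CD45+ array (13.3-fold higher). Cttn, cortactin, had 1962.9 in the CD45- array against 110.5 in the CD45+ array (17.8-fold higher), with 5 probe sets from 0.72 to 5.17. On the other side, Was, the actin regulator of blood cells, had 272.6 in the CD45- array against 3832.8 in the CD45+ array (14.1-fold lower), and Vasp was 9.97-fold lower. Of 14 measured genes for other platelet surface proteins, 4 (28.6%) were higher by 4-fold or more and 3 (21.4%) lower by as much, and with the mean of probe sets 3 were higher and 1 lower. Cd36, a scavenger receptor that red cell precursors and macrophages also carry, had 12818.3 in the CD45- array against 1148.4 in the CD45+ array (11.2-fold higher). Ptger3, a prostaglandin receptor, was at least 9.62-fold higher by its brightest probe set, although its other probe set gave -1.27. Icam2 was 13.6-fold lower, Cd84 5.12-fold lower and Entpd1, an enzyme that breaks down ADP, at least 4.14-fold lower.

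**Figure D4:**
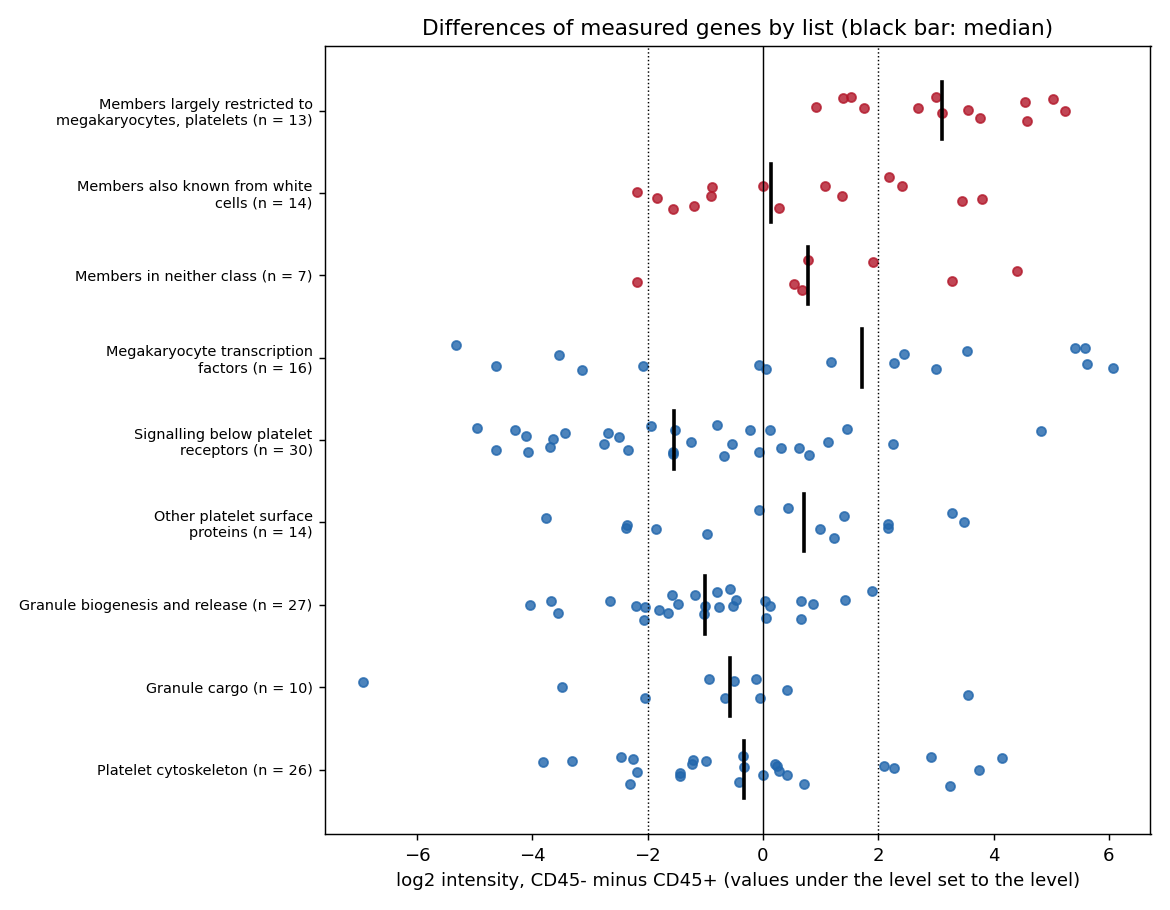
Difference of log2 intensity, CD45- minus CD45+, for measured genes of the members' 3 classes (red) and the 6 further lists (blue), with medians as black bars and the 4-fold threshold as dotted lines; values under the level were set to it, so points of genes measured in 1 array are bounds. The 13 members largely restricted to megakaryocytes and platelets all lie above 0, whereas the signalling list spreads from -4.96 to 4.82.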

How the data were processed

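RNA of 1 CD45- and 1 CD45+ sorted sample was read on 1 array each. Total RNA was turned into biotin-labelled cRNA by an Affymetrix 3′ kit, per the labels' protocols. The authors deposited 1 intensity per probe set on a linear scale for 45037 probe sets. The submitters' processing notes name GCRMA and Partek 6.6 without their roles. The arrays' means without the outer 2% of values at each end were 494 for CD45- and 497 for CD45+, and the scaling step is not settled. Detection calls and saturation are not given in the sources used here. GEO's platform annotation gave 34945 probe sets 1 symbol, 932 several and 9160 none, and the 37 member symbols matched RefSeq (GRCm38.p6) by Entrez identifier.

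Log2 was taken of the intensities without a pseudocount, in Python 3.11.15 with numpy 2.4.6, pandas 2.3.3 and matplotlib 3.10.9, by scripts checked on simulated data. The alternatives were the mean of probe sets, other detection levels, quantile normalization, median centring and thresholds of 2-fold and 8-fold. A further alternative left out probe sets with names ending in _a_at, _s_at or _x_at (an a, s or x suffix). Depth does not apply to arrays, and their number, 1 per group, limits precision. All members on the array are described. Beside them, 6 further lists hold other genes of the lineage (transcription factors, signalling, surface, granule formation, granule cargo and cytoskeleton). From each, the 4 measured genes with the largest difference, genes 4-fold against the list's majority and Gata1, Nfe2, Fli1, F2rl3 and Thpo are named. A further gene of that rule is not reported here. Any other gene was chosen after its values were seen. Members, lists and tests were chosen with earlier results of these data known.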

Additional observations from a re-analysis of the deposited data

Results flagged for a closer look

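A probe set that carries the names of both Thbs1 and Pald1 took no part in the comparison because it has several symbols. Its intensity was 4210.4 in the CD45- array against 203.8 in the CD45+ array, a difference of 4.37, and it stood out as signal outside the values used. The probe sets named for Thbs1 alone had 1405.4 and 840.7 in the CD45- array, and the Pald1 probe set was under the level at 9.3 in the CD45- array and 44.6 in the CD45+ array.

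A probe set of Selp that does not stand for the gene had 103.3 in the CD45- array against 22.1 in the CD45+ array. It stood out because it passed the level of 101.1 while the probe set used for Selp did not. It does not reach 127.3, the level drawn from the silent receptors in the CD45- array alone.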

How the results depend on the processing

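The count of members at least 4-fold higher was 14 to 19 under the 7 alternatives that kept the 4-fold threshold, 21 at a 2-fold and 11 at an 8-fold threshold, against 15 as reported. Under all 8 settings with a 4-fold threshold, the same 14 members were higher: Itga2b, Gp1bb, Gp9, Gp5, Clec1b, Treml1, Pf4, Ppbp, Vwf, F5, Thbs1, Alox12, Tubb1 and Gng11. The median over measured members ran from 1.45 to 2.26, against 1.63 as reported. The count at least 4-fold lower, 2 as reported, was 1 with a level for each array and 1 with the 99th percentile as the level. It was 0 after quantile normalization, 5 at 2-fold and 0 at 8-fold. Without probe sets with an a, s or x suffix it was 3, where Fermt3 joined. With the mean of probe sets it was 2, with Rasgrp2 in place of Nbeal2, which had -1.57. No called difference changed sign, and 212 of 232 values for single members moved by less than 0.66, the probe set SD. Many could not move, since 20 members had 1 probe set and other levels leave values well above them unchanged. Members that dropped out of a setting are not among the 232. These were P2rx1, P2ry12 and F2r without the suffixed probe sets, Mmrn1 with the mean of probe sets, and Pdgfa and Pdgfb with the 99th percentile. With the mean of probe sets, Itgb3, which is not among the 4-fold members, turned to -0.04, with P2rx1 at 1.49 and Rasgrp2 at -2.09. Without probe sets with an a, s or x suffix, Fermt3 had -2.22. Of all genes past 4-fold, the share that was higher was 33.1% with the deposited values, 42.1% with quantile normalization and 46.7% without a detection level. No paired analysis was possible because each group has 1 array. Signal near background limits Gp6, Mmrn1, Rab27b, Pdgfa, Pdgfb and Nbeal2, for which at most a bound or a small difference can be shown.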

Other observations

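Pf4 and Ppbp lie in a cluster of chemokine genes, and 5 other genes of that cluster were looked at. These genes were chosen after the values of Pf4 and Ppbp were seen. Cxcl5, Cxcl3 and Cxcl15 did not reach the level, at 4.1, 1.6 and 29.0 in the CD45- array and 1.8, 22.4 and 37.1 in the CD45+ array. Cxcl1, a neutrophil-attracting chemokine, had 394.9 in the CD45- array against 132.2 in the CD45+ array (a difference of 1.58), and Cxcl2 had 32.1 in the CD45- array against 149.0 in the CD45+ array.

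Of the integrin genes outside the platelet receptors, 3 were looked at and were dimmer in the CD45- cells by their brightest probe sets. Itgav, the alpha V subunit that pairs with Itgb3 outside platelets, had 82.8 in the CD45- array against 1339.2 in the CD45+ array (at least 10.5-fold lower), although its 5 probe sets ran from -4.77 to 2.29. Itgal, the alpha subunit of a white cell integrin, had 357.9 in the CD45- array against 8146.7 in the CD45+ array (22.8-fold lower), and its partner Itgb2 had 563.8 in the CD45- array against 6099.3 in the CD45+ array (10.8-fold lower). These 3 genes were likewise chosen after values were seen.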
